A study of Mus musculus with 19 samples.

Results

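The 10 genes described here belong to signalling by the transforming growth factor beta (TGF-beta) and bone morphogenetic protein (BMP) family: the ligand genes Bmp2, Bmp4, Bmp6 and Inhbb, the receptor genes Eng and Acvrl1, the inhibitory Smad genes Smad6 and Smad7, and the target genes Id1 and Id3. They were chosen with earlier results of these data known, and taken by name, as the probe sets annotated with that 1 gene symbol. Each gene had 1 probe set, so the set is 10 of 28856 probe sets and 10 of the 19938 genes with a single symbol. The 19 Affymetrix arrays measured RNA of endothelial cells sorted from 3 lymphoid tissues of the inbred mouse strain BALB/c. All groups shared the strain, the age of 6 to 8 weeks and equal parts of both sexes, and the labels give no treatment or genetic change.

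High endothelial cells (HEC) line the venules where lymphocytes leave the blood, and capillary cells line the exchange vessels of the same tissues. Peripheral lymph nodes (PLN) gave 4 HEC and 3 capillary arrays. Mesenteric lymph nodes (MLN) gave 2 capillary arrays, 2 arrays of HEC sorted as MAdCAM1+/PNAd+ and 2 of HEC sorted as MAdCAM1+. Peyer's patches (PP), lymphoid follicles in the gut wall, gave 3 arrays of each cell type. MAdCAM1 is the vascular addressin of mucosal tissue and PNAd the sugar epitope bound by L-selectin. The labels do not say whether replicates came from separate sorts or how many mice each sample held, so the p-values reflect only how these samples varied, and that variation may be technical.

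In this family a dimeric ligand brings together type I and type II receptor kinases, which phosphorylate receptor-regulated Smad proteins. These enter the nucleus with Smad4. Acvrl1 (ALK1) is a type I receptor found mainly on endothelium, and endoglin, the product of Eng, is its co-receptor for circulating BMP ligands. Smad6 and Smad7 block the receptors or their Smads and are themselves induced by the pathway, as are Id1 and Id3, inhibitors of basic helix-loop-helix transcription factors. Human mutations in the endoglin and ALK1 genes cause hereditary haemorrhagic telangiectasia, a disease of malformed small vessels.

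Values are log2 signals centred for each probe set on a baseline that the sources used here do not state. They show differences between arrays, and neither the absolute level of a gene nor the order of genes by level can be read from them. A difference of 1 on this scale is a doubling. Differences were tested with limma across all 19938 genes, with 1 mean for each of the 7 groups and p-values adjusted by Benjamini-Hochberg, and a gene is said to rise or fall only where the adjusted p is under 0.05.

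The sorted groups separated by HEC and capillary marker lists, which were added after the data were seen. This separation is therefore no independent check of the sorts. The mean of 7 measured HEC marker genes lay between 2.86 and 3.50 on the 11 HEC arrays and between -0.66 and 1.04 on the 8 capillary arrays, and the mean of 7 capillary markers between -0.45 and 0.34 on HEC and between 2.80 and 3.51 on capillary arrays. Of the 7 HEC markers, 6 were higher in HEC as the mean of 3 tissues and 1 did not pass, and in PLN 6 were higher and 1 was lower. PLN capillary arrays 1 and 2 stood apart, with HEC marker means of 1.04 and 0.82, while the other 6 capillary arrays had at most -0.024. PLN results are therefore also given without these 2 arrays where the call ended, the sign turned or the value moved by over 1.5 times. Such fits keep PLN capillary array 3 alone, so their PLN capillary value rests on 1 array. Whether a bulk value is lower because fewer cells carried the RNA or because each cell carried less cannot be told apart.

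The region just before the transcription start is shown for Bmp6, Inhbb, Smad6 and Id3, the 4 genes that fell in HEC of every tissue and had an entry in the promoter table. The sequences are from RefSeq on GRCm38.p6, the 250 bases before the start in the direction of the gene, and 6 of the 10 genes had an entry. Bmp6 is at chr13:38345466-38345715 (+), Inhbb at chr1:119422249-119422498 (-), Smad6 at chr9:64022060-64022309 (-) and Id3 at chr4:136143572-136143821 (+).
Bmp6: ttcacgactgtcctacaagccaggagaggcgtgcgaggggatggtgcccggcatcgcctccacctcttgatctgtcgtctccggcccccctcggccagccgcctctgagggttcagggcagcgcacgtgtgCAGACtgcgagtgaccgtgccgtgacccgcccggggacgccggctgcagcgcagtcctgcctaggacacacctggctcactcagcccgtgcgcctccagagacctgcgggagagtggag
Inhbb: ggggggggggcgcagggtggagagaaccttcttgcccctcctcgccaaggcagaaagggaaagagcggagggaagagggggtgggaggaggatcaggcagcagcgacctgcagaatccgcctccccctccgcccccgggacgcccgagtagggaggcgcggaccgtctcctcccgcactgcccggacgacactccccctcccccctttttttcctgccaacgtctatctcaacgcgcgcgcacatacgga
Smad6: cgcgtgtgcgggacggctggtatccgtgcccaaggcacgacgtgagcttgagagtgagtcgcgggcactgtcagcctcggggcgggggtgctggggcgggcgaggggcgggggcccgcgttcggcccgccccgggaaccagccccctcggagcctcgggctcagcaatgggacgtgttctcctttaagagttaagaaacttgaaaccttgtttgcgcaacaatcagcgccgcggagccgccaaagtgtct
Id3: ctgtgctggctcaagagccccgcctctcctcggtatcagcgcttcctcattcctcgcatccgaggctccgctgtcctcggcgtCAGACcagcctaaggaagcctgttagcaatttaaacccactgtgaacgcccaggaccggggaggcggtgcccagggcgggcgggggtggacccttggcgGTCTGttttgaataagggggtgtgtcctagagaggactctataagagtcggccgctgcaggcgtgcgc
Capitals mark CAGAC on either strand (GTCTG when read from the other strand), which holds the short box bound by Smad3 and Smad4. Id3 had 2 matches, at 167 and 68 bases before the start, Bmp6 had 1 at 119 bases, and Inhbb and Smad6 had none. Eng, whose sequence is not shown, had 2 matches, at 214 and 127 bases, and Bmp4 had none. Of 32851 promoter windows of this length, 42.2% held the motif. GGCGCC, the palindrome bound by BMP-regulated Smads, which does not overlap CAGAC, was found in 9.59% of all windows and in none of the 6 genes' windows. GC content was 68.8% for Bmp6, 68% for Inhbb, 66.8% for Smad6 and 62.8% for Id3, against a median of 52.4% over all windows. These matches describe the letters of the windows only.

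HEC and capillary cells differed in most of these genes. As the mean of 3 tissues, 7 of the 10 genes were lower in HEC (Bmp6, Inhbb, Acvrl1, Smad6, Smad7, Id1 and Id3), 1 was higher (Bmp2), and Bmp4 and Eng did not pass the test. Of all genes tested, 33.9% were called in this comparison, 18% higher and 15.9% lower in HEC. The median difference over the 10 genes was -1.22, against -0.01 over all genes. Because the 10 were chosen with earlier results known, these figures describe them and not the whole pathway. The 77 other pathway genes measured had a median of -0.11, with 29 lower and 14 higher. The same 7 genes fell in each tissue. In PLN, where Bmp2 and Bmp4 rose beside them, 24.6% of all genes were called, 13.1% higher and 11.4% lower. In MLN, where no other gene of the 10 passed, 15.2% of all genes were called, 7.87% higher and 7.31% lower. In PP, also with no other gene of the 10, 19.5% were called, 8.9% higher and 10.6% lower. On all 7, no HEC array reached the lowest capillary array. How many of all genes had separate arrays in this way was not counted.

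**Figure D1:**
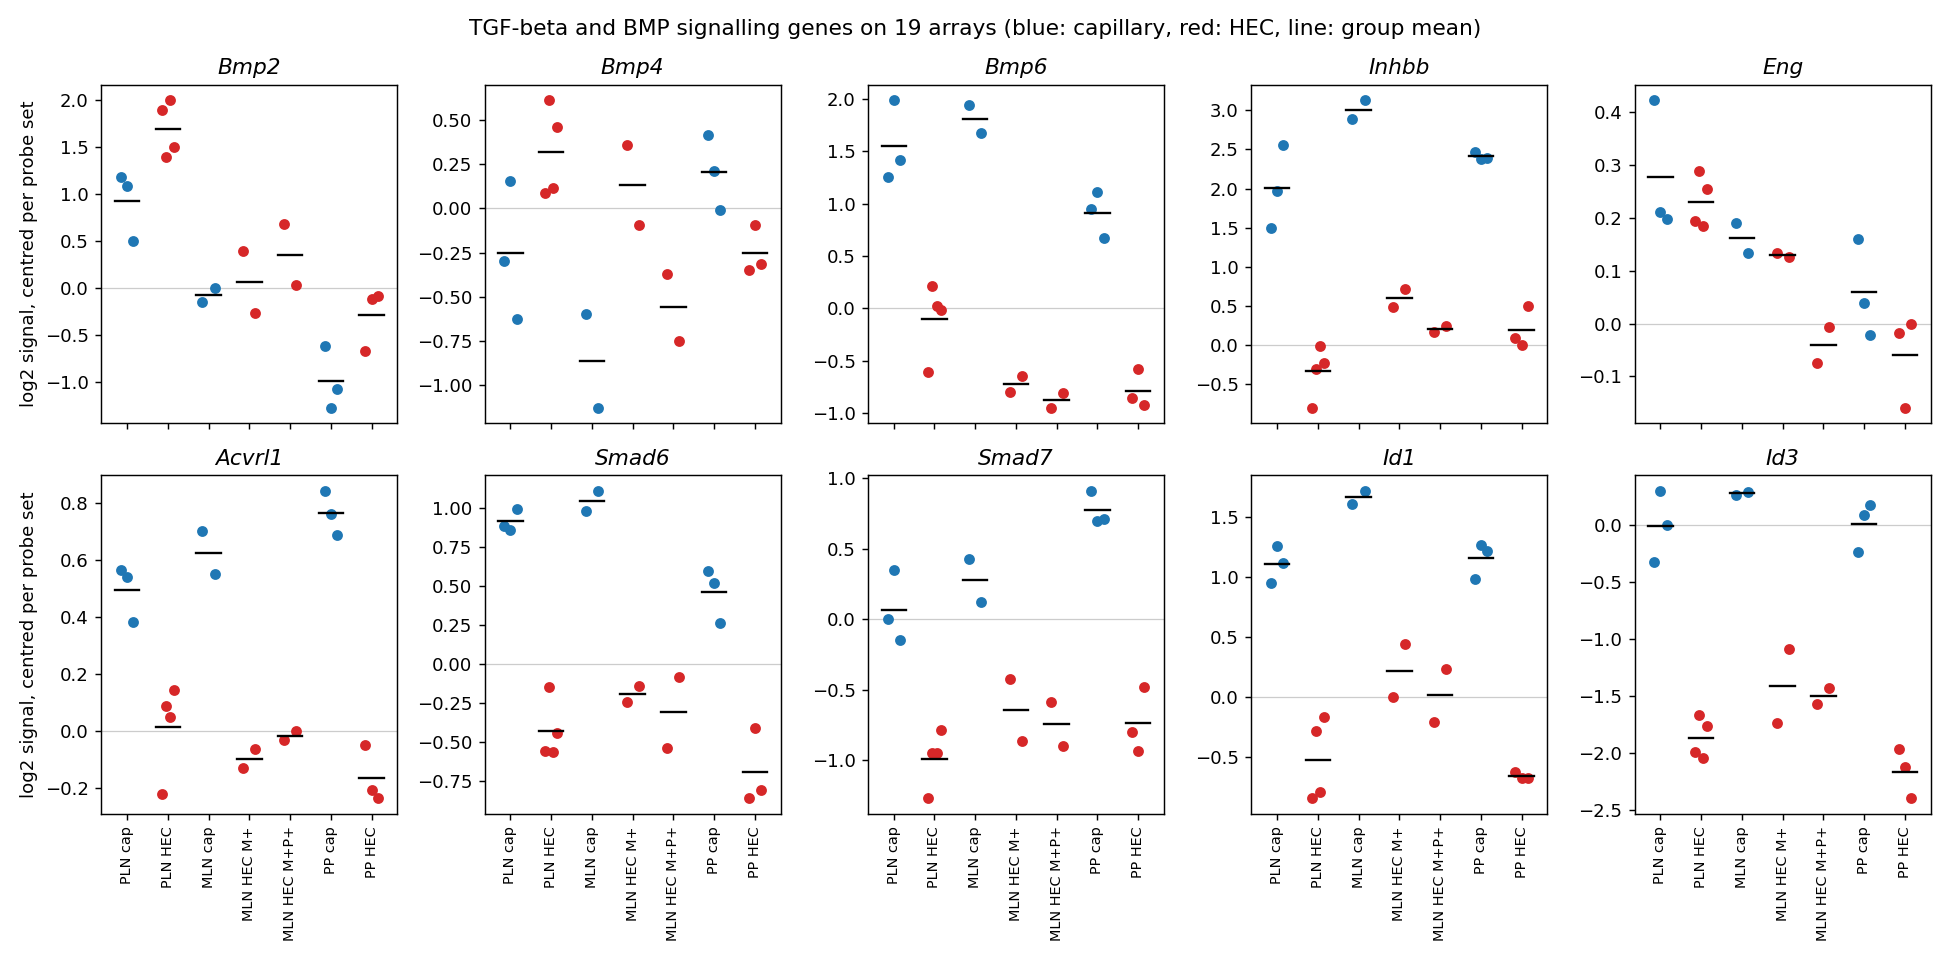
Centred log2 signal (y axis) of each of the 10 genes on each array, by group on the x axis (cap, capillary; M+, MAdCAM1+ gate; M+P+, MAdCAM1+/PNAd+ gate), with blue points for capillary arrays, red points for HEC arrays and a line at the group mean. The y axes differ between panels, red and blue points do not overlap for Bmp6, Inhbb, Acvrl1, Smad6, Smad7, Id1 and Id3, and Bmp2 is highest in both PLN groups.

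Among the ligands, Inhbb had the largest difference. It encodes the beta B subunit of activin B and inhibin B. The capillary values of Inhbb were 1.50, 1.96 and 2.56 in PLN, 2.88 and 3.13 in MLN and 2.47, 2.37 and 2.39 in PP. In HEC they were -0.80, -0.30, -0.0068 and -0.22 in PLN, 0.17 and 0.24 in the MAdCAM1+/PNAd+ gate of MLN, 0.49 and 0.72 in the MAdCAM1+ gate, and 0.089, 0 and 0.50 in PP. Each capillary array was above each HEC array, and the PLN capillary arrays were spread more widely than those of PP. Inhbb was 5.22-fold lower in HEC, a log2 difference of -2.38 ± 0.13 with an adjusted p of 8.3e-11. By tissue the differences were -2.34 ± 0.21 in PLN, -2.60 ± 0.23 in MLN and -2.21 ± 0.22 in PP.

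Bmp6 is a BMP ligand made by endothelium, best known in the liver for its control of hepcidin. Its capillary values were 1.26, 1.99 and 1.41 in PLN, 1.94 and 1.68 in MLN and 0.95, 1.11 and 0.67 in PP. Its HEC values were -0.61, 0.22, 0.021 and -0.021 in PLN, -0.95 and -0.81 in the MAdCAM1+/PNAd+ gate, -0.79 and -0.64 in the MAdCAM1+ gate and -0.86, -0.58 and -0.92 in PP. HEC and capillary arrays did not overlap, and PLN HEC lay above the HEC of the other tissues apart from array 1. Bmp6 was 3.96-fold lower in HEC (log2 difference -1.98 ± 0.12, adjusted p 2.6e-10). The fall was -2.61 ± 0.21 in MLN against -1.65 ± 0.19 in PLN and -1.70 ± 0.20 in PP. The difference between the MLN and PLN falls was -0.96 ± 0.28 and did not pass the test (adjusted p 0.3).

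Bmp2, a BMP ligand of blood vessels and bone, ran the other way. Its HEC values were 1.89, 1.40, 2.00 and 1.50 in PLN, 0.68 and 0.029 in the MAdCAM1+/PNAd+ gate of MLN, 0.39 and -0.27 in the MAdCAM1+ gate, and -0.67, -0.12 and -0.089 in PP. The capillary values of Bmp2 were 1.18, 1.09 and 0.50 in PLN, -0.15 and 0 in MLN and -0.62, -1.28 and -1.08 in PP. Over all tissues HEC and capillary arrays overlapped, and within a tissue they were separate in PLN only. Bmp2 was 1.50-fold higher in HEC as the mean of 3 tissues, a log2 difference of 0.58 ± 0.14 with an adjusted p of 0.0035. The difference was 0.77 ± 0.23 in PLN (adjusted p 0.021), 0.28 ± 0.26 in MLN (adjusted p 0.63) and 0.70 ± 0.25 in PP (adjusted p 0.056), so the PP value lay close to the threshold. The PLN call was lost without PLN capillary array 3 (0.56, adjusted p 0.13), PLN HEC array 1 (0.71, adjusted p 0.056) or PLN HEC array 3 (0.67, adjusted p 0.063). It was also lost after quantile normalization (0.49, adjusted p 0.11). The PP difference in turn passed in 10 of the 29 alternatives, among them the replicate block (adjusted p 0.048). Without PLN capillary arrays 1 and 2 the PLN difference was 1.20, which rests on PLN capillary array 3 alone, the lowest PLN capillary array for Bmp2.

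Bmp4, a ligand close to Bmp2 in sequence, had no common direction. HEC values were 0.085, 0.61, 0.11 and 0.46 in PLN, -0.37 and -0.75 in the MAdCAM1+/PNAd+ gate, 0.36 and -0.093 in the MAdCAM1+ gate and -0.35, -0.096 and -0.31 in PP. Capillary values were -0.30, 0.16 and -0.63 in PLN, -0.60 and -1.13 in MLN and 0.42, 0.21 and -0.011 in PP. In PP every HEC array was below every capillary array, while in PLN and MLN the HEC mean was the higher one and single arrays overlapped. The mean difference over the tissues was 0.25 ± 0.12 (adjusted p 0.12). It was 0.38 without PLN capillary arrays 1 and 2, which leaves PLN capillary array 3 alone, the lowest of that group for Bmp4. Without PLN capillary array 2 it passed (0.32, adjusted p 0.035). Bmp4 rose in HEC of PLN by 0.57 ± 0.19 (adjusted p 0.038), whereas the values in MLN, 0.65 ± 0.22 with an adjusted p of 0.0550, and in PP, -0.46 ± 0.21 with an adjusted p of 0.15, did not pass. The MLN value passed in 11 of the 29 alternatives. The PLN and PP differences themselves differed by -1.03 ± 0.28 (adjusted p 0.0492), in a comparison where 4.05% of all genes were called, 1.69% upward and 2.37% downward. That call was lost in 12 of the 19 fits that left out 1 array, with an adjusted p of up to 0.12. The PLN rise was lost without PLN capillary array 1 (0.55, adjusted p 0.080) or 3 (0.39, adjusted p 0.21) and without PLN HEC array 2 (0.48, adjusted p 0.096) or 4 (0.52, adjusted p 0.096), and was 0.94 without PLN capillary arrays 1 and 2.

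Of the receptors, Acvrl1 fell in HEC and its co-receptor Eng did not pass the test. The capillary values of Acvrl1 were 0.56, 0.54 and 0.38 in PLN, 0.70 and 0.55 in MLN and 0.84, 0.76 and 0.69 in PP. Its HEC values were -0.22, 0.086, 0.048 and 0.14 in PLN, -0.034 and 0 in the MAdCAM1+/PNAd+ gate, -0.13 and -0.065 in the MAdCAM1+ gate and -0.052, -0.21 and -0.24 in PP. No HEC array reached the lowest capillary array. Acvrl1 was 1.62-fold lower in HEC (log2 difference -0.70 ± 0.057, adjusted p 2.4e-08). The difference was -0.48 ± 0.092 in PLN, -0.68 ± 0.10 in MLN and -0.93 ± 0.099 in PP, and that between PP and PLN, -0.45 ± 0.13, did not pass (adjusted p 0.077), although it did without PLN HEC array 1 (-0.53, adjusted p 0.021). Without PLN capillary arrays 1 and 2 the PLN fall was -0.37 and did not pass (adjusted p 0.10).

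Eng values varied little. Capillary arrays had 0.42, 0.21 and 0.20 in PLN, 0.19 and 0.13 in MLN and 0.16, 0.039 and -0.022 in PP. HEC arrays had 0.19, 0.29, 0.19 and 0.25 in PLN, -0.075 and -0.0066 in the MAdCAM1+/PNAd+ gate, 0.13 and 0.13 in the MAdCAM1+ gate and -0.017, -0.16 and 0 in PP. The cell types overlapped, and both PLN groups were at the top of the range. The HEC difference of Eng as the mean of 3 tissues was -0.094 ± 0.048 with a 95% interval from -0.20 to 0.0077 (adjusted p 0.16). The 95% intervals of single tissues reached down to -0.30 in MLN and -0.29 in PP. In PLN the difference was -0.047 ± 0.078, and 0.033 without PLN capillary arrays 1 and 2. Other general endothelial genes moved as well: of 14 such markers, a list that includes Eng, 8 were lower and 1 was higher in HEC.

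Both inhibitory Smad genes fell. The capillary values of Smad6, which chiefly restrains BMP receptors, were 0.88, 0.86 and 0.99 in PLN, 0.98 and 1.11 in MLN and 0.59, 0.52 and 0.26 in PP. Its HEC values were -0.56, -0.15, -0.56 and -0.44 in PLN, -0.54 and -0.081 in the MAdCAM1+/PNAd+ gate, -0.24 and -0.14 in the MAdCAM1+ gate and -0.86, -0.41 and -0.80 in PP. All HEC values of Smad6 were below 0 and all capillary values above it, and PP was the lowest tissue in both cell types. Smad6 was 2.40-fold lower in HEC, with log2 differences of -1.34 ± 0.13 in PLN, -1.29 ± 0.15 in MLN and -1.15 ± 0.14 in PP and an adjusted p of 1.5e-09 for the mean.

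Smad7 restrains TGF-beta, activin and BMP receptors alike. Its capillary values were 0.0012, 0.35 and -0.15 in PLN, 0.43 and 0.12 in MLN and 0.91, 0.70 and 0.71 in PP. HEC arrays had -1.27, -0.95, -0.95 and -0.79 in PLN, -0.59 and -0.90 in the MAdCAM1+/PNAd+ gate, -0.42 and -0.87 in the MAdCAM1+ gate and -0.80, -0.93 and -0.49 in PP. The cell types did not overlap, and the PP capillary arrays were above all others, whereas PP gave the lowest capillary arrays for Smad6. Smad7 was 2.26-fold lower in HEC (log2 difference -1.18 ± 0.095, adjusted p 2.2e-08), by -1.06 ± 0.15 in PLN, -0.97 ± 0.18 in MLN and -1.51 ± 0.17 in PP. The PP and PLN falls differed by -0.45 ± 0.23, which did not pass the test (adjusted p 0.28).

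The Id genes are well known readouts of BMP receptor activity in endothelium. Id1 values on capillary arrays were 0.95, 1.26 and 1.11 in PLN, 1.61 and 1.72 in MLN and 0.98, 1.27 and 1.22 in PP. On HEC arrays they were -0.84, -0.28, -0.79 and -0.17 in PLN, -0.21 and 0.23 in the MAdCAM1+/PNAd+ gate, 0 and 0.44 in the MAdCAM1+ gate and -0.63, -0.67 and -0.67 in PP. MLN had the highest Id1 in both cell types, and the HEC and capillary ranges were separate. Id1 was 3.17-fold lower in HEC, a log2 difference of -1.66 ± 0.10 (adjusted p 4.5e-10), with -1.63 ± 0.16 in PLN, -1.55 ± 0.18 in MLN and -1.81 ± 0.17 in PP.

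The 7 group means of Id3 had the same order as those of Id1. Its capillary values were -0.33, 0.30 and 0 in PLN, 0.27 and 0.30 in MLN and -0.23, 0.086 and 0.17 in PP. Its HEC values were -1.99, -1.66, -2.04 and -1.77 in PLN, -1.57 and -1.42 in the MAdCAM1+/PNAd+ gate, -1.73 and -1.09 in the MAdCAM1+ gate and -1.97, -2.12 and -2.40 in PP. The highest HEC array was below the lowest capillary array, with PP HEC at the bottom. Id3 was 3.79-fold lower in HEC, a log2 difference of -1.92 ± 0.10 (adjusted p 9.5e-11), with -1.86 ± 0.17 in PLN, -1.74 ± 0.19 in MLN and -2.17 ± 0.18 in PP. Among the Id genes that are not of the 10, named here after their values were seen, Id4 fell in HEC by -1.25 ± 0.07 and Id2 rose by 0.53 ± 0.13. The Id4 fall passed in each tissue. The Id2 rise passed in PLN only (0.62, limma adjusted p 0.046), and that call was lost in 10 of 29 alternatives.

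**Figure D2:**
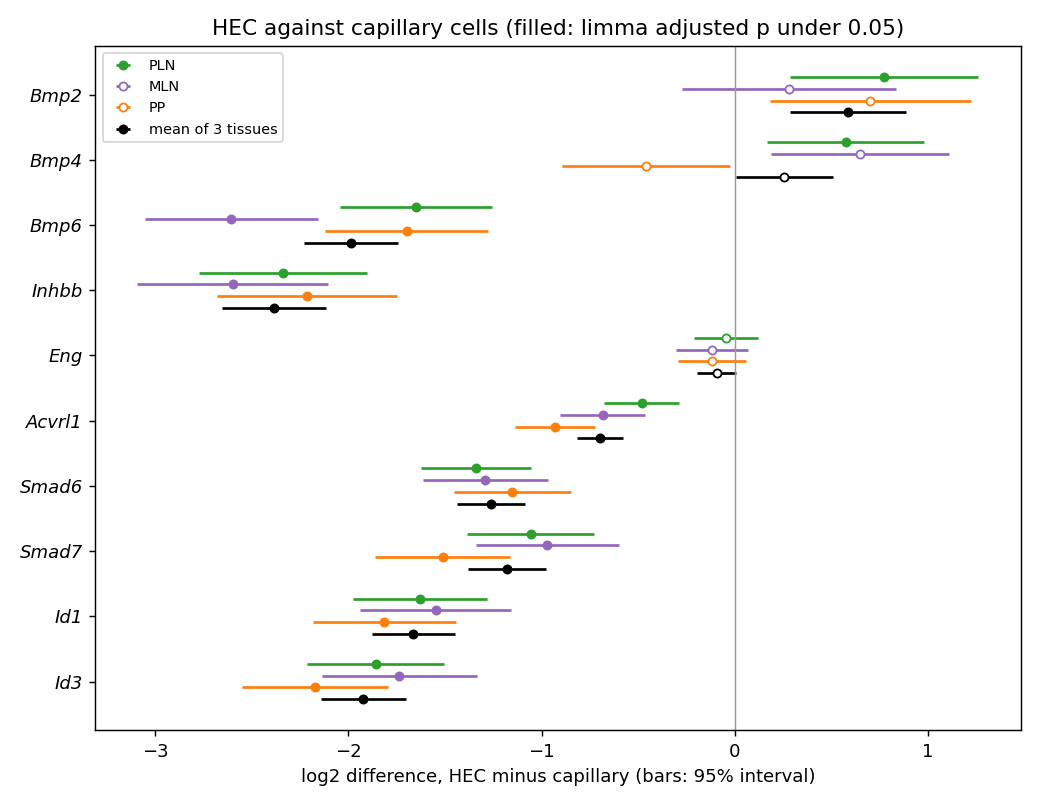
Log2 difference, HEC minus capillary cells (x axis), of each of the 10 genes in PLN (green), MLN (purple), PP (orange) and as the mean of the 3 tissues (black), with bars for the 95% interval and filled points where limma's adjusted p was under 0.05. Bmp6, Inhbb, Acvrl1, Smad6, Smad7, Id1 and Id3 are below 0 in each tissue, with Inhbb lowest at -2.38 for the mean, while Eng stays near 0.

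Other transcripts moved with the same split of arrays. Of 21 immediate-early genes, which respond to tissue handling, 19 were lower in HEC, with array means from -0.70 to -0.10 on HEC and from 0.26 to 0.71 on capillary arrays. Of 12 pericyte and smooth muscle genes 10 were lower and 1 was higher, with array means from -0.78 to -0.36 on HEC and from -0.025 to 1.04 on capillary arrays. B cell genes ran the other way, with 8 of 10 higher in HEC and array means from 0.16 to 0.68 on HEC against -0.15 to 0.16 on capillary arrays. The tissues differed in these lists: 14 immediate-early genes were lower and 1 higher in HEC of PLN (median of the list -0.59), against 19 lower and 0 higher in PP (-1.24). Of the pericyte genes 10 were lower and 0 higher in PLN (-1.20), against 7 lower and 1 higher in PP (-0.66). The part of these lists in the falls of Inhbb, Bmp6, Acvrl1, Smad6, Smad7, Id1 and Id3 was not tested.

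Between PP and PLN, Bmp2 had the largest difference of the 10 genes in both cell types. The order of group means was PLN HEC (1.70 ± 0.29 SD, n = 4), PLN capillary (0.92 ± 0.37 SD, n = 3), MLN HEC of the MAdCAM1+/PNAd+ gate (0.35 ± 0.46 SD, n = 2), MLN HEC of the MAdCAM1+ gate (0.060 ± 0.47 SD, n = 2), MLN capillary (-0.074 ± 0.10 SD, n = 2), PP HEC (-0.29 ± 0.32 SD, n = 3) and PP capillary (-0.99 ± 0.34 SD, n = 3). Only the top pair, PLN HEC and PLN capillary, had separate ranges; each later group overlapped with the next. In HEC, Bmp2 was 3.97-fold lower in PP than in PLN (log2 difference -1.99 ± 0.23, adjusted p 2.5e-05) and 2.81-fold lower in MLN than in PLN (-1.49 ± 0.21, adjusted p 4.9e-04). In capillary cells it was 3.77-fold lower in PP than in PLN (-1.92 ± 0.25, adjusted p 8.2e-05), and -1.49 without PLN capillary arrays 1 and 2 (adjusted p 0.032). The PP drops of HEC and capillary cells differed by -0.072 ± 0.34, with no settled sign and a 95% interval from -0.78 to 0.64 (adjusted p 0.92), and by -0.50 (adjusted p 0.59) without PLN capillary arrays 1 and 2. The 3 called tissue differences of Bmp2 passed in each of the 29 alternative settings.

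Bmp2 in MLN lay between the other tissues. MLN capillary arrays were lower than PLN by -1.0 ± 0.28 (adjusted p 0.24), or -0.57 without PLN capillary arrays 1 and 2 (adjusted p 1), and PP capillary arrays lower than MLN by -0.92 ± 0.28 (adjusted p 0.13), with separate arrays in both comparisons, although neither passed the test. In HEC the PP minus MLN difference of Bmp2 was -0.50 ± 0.23 (adjusted p 0.4) and the arrays overlapped.

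In HEC of PP against PLN, 3 of the 10 genes were called, all lower, where 6.65% of all genes were called, 2.16% higher and 4.49% lower. Beside Bmp2 these were Bmp6, with -0.69 ± 0.19 (adjusted p 0.036), and Eng, with -0.29 ± 0.078 (adjusted p 0.034). The PP HEC arrays of Eng were below all PLN HEC arrays, while for Bmp6 PLN HEC array 1 lay among the PP arrays. The Bmp6 call was lost without PLN HEC array 2 (-0.58), 3 (-0.65) or 4 (-0.66) or PP HEC array 1 (-0.65), and the Eng call without any 1 of the 4 PLN HEC arrays (-0.30 to -0.27) or PP HEC array 1 (-0.31) or 2 (-0.24). With the replicate number as a block Eng did not pass (-0.29, adjusted p 0.069) and Inhbb did (0.60, adjusted p 0.044). Of 14 general endothelial genes, Eng included, 5 were lower in PP than in PLN HEC and 0 higher, with a median of -0.27.

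MLN HEC against PLN HEC gave 4 calls, where 2.69% of all genes were called, 0.722% higher and 1.97% lower in MLN. Bmp2 and Bmp6 were lower in MLN, Bmp6 by -0.70 ± 0.17 (adjusted p 0.037). Inhbb rose by 0.74 ± 0.19 (adjusted p 0.0476) and Id1 by 0.64 ± 0.15 (adjusted p 0.029), and arrays of Inhbb were separate while those of Id1 overlapped. Against MLN, PP HEC was lower in 2 genes, where 1.2% of all genes were called and 0.642% were lower, namely Id1 with -0.77 ± 0.16 (adjusted p 0.025) and Id3 with -0.71 ± 0.17 (adjusted p 0.0494). All PP HEC arrays were below all MLN HEC arrays for both Id genes. Leaving out 1 of the 19 arrays ended the Bmp6 call in 8 fits, the Inhbb call in 15, the Id1 call against PLN in 4, the Id1 call against PP in 4 and the Id3 call in 15. The highest adjusted p over all alternatives was 0.12 for Bmp6, 0.18 for Inhbb, 0.17 and 0.14 for Id1 and 0.35 for Id3.

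The MLN HEC arrays mix 2 gates. Between the MAdCAM1+/PNAd+ and MAdCAM1+ gates none of the 10 genes was called by limma, where 0.0201% of all genes were, and Bmp4 had the largest difference, at -0.69 ± 0.25 with an adjusted p of 1 and an unadjusted p of 0.014. At limma's unadjusted p under 0.05, 1 of the 10 genes passed. The share of all genes at that cut was not counted. With 2 arrays a gate, the 95% interval of Bmp4 ran from -1.23 to -0.16.

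Capillary cells gave 4 calls of the 10 genes over the 3 tissue comparisons. PP against PLN gave 2 calls, where 4.64% of all genes were called, 2.4% higher and 2.24% lower in PP: Bmp2, and Smad7, which was higher in PP by 0.71 ± 0.17 (adjusted p 0.016) with separate arrays. Smad7 lost its call without PLN capillary array 1 (0.67), PLN capillary array 3 (0.60) or PP capillary array 1 (0.64), and without PLN capillary arrays 1 and 2 it was 0.92 (adjusted p 0.052). PP against MLN gave 2 calls, where 1.86% of all genes were called, 1.02% higher and 0.833% lower in PP. Bmp4 was higher in PP by 1.07 ± 0.23 (adjusted p 0.018) and Bmp6 lower by -0.90 ± 0.22 (adjusted p 0.0499), both with separate arrays. Bmp4 lost the call without MLN capillary array 2 (0.80), PP capillary array 1 (0.96) or PP capillary array 2 (1.07), and Bmp6 in 15 of the 19 fits that left out 1 array. MLN against PLN gave 0 calls by limma, where 0.291% of all genes were called. At an unadjusted p under 0.05, a cut at which all genes were not counted, 4 of the 10 genes passed. The largest of these differences was that of Inhbb, 1.00 ± 0.25 (adjusted p 0.16). It passed without PLN capillary array 3 (1.27, adjusted p 0.015) and with the replicate number as a block (1.14, adjusted p 0.017), and was 0.45 (adjusted p 1) without PLN capillary arrays 1 and 2.

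Beside Bmp4 in PP against PLN, no gene of the 10 had a called change in the HEC difference between tissues. MLN against PLN gave 0 such calls by limma, where 0.416% of all genes were called, and PP against MLN gave 0, where 0.752% were called. An unadjusted p under 0.05 was found for 1 of the 10 genes in MLN against PLN and for 3 in PP against MLN. All genes were not counted at that cut. For PP against MLN the largest values were those of Bmp4 and Bmp6, -1.11 ± 0.30 (adjusted p 0.14) and 0.91 ± 0.29 (adjusted p 0.28).

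Markers of other cells also differed between tissues. Of 10 intestinal epithelial genes, 8 were higher in PP than in PLN HEC and 2 in PP than in PLN capillary cells, with array means in PP from 0.12 to 1.26. In capillary cells, 4 of 12 pericyte and smooth muscle genes were lower in PP than in PLN and 1 was higher. In HEC, 4 of 9 T cell and 3 of 10 B cell genes were lower in PP than in PLN and 0 higher. Immediate-early genes were lower in PP than in MLN HEC in 3 of 21 cases (median -0.35), with array means from -0.70 to -0.40 in PP HEC and from -0.34 to -0.10 in MLN HEC, where Id1 and Id3 were also lower in PP. Against PLN, 4 immediate-early genes were lower and 1 was higher in PP HEC (median -0.21). In PP capillary cells 5 were higher and 1 was lower than in PLN (median 0.15). The part of these lists in the tissue differences of Bmp2, Bmp6, Eng, Smad7, Id1 and Id3 was not tested.

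**Figure D3:**
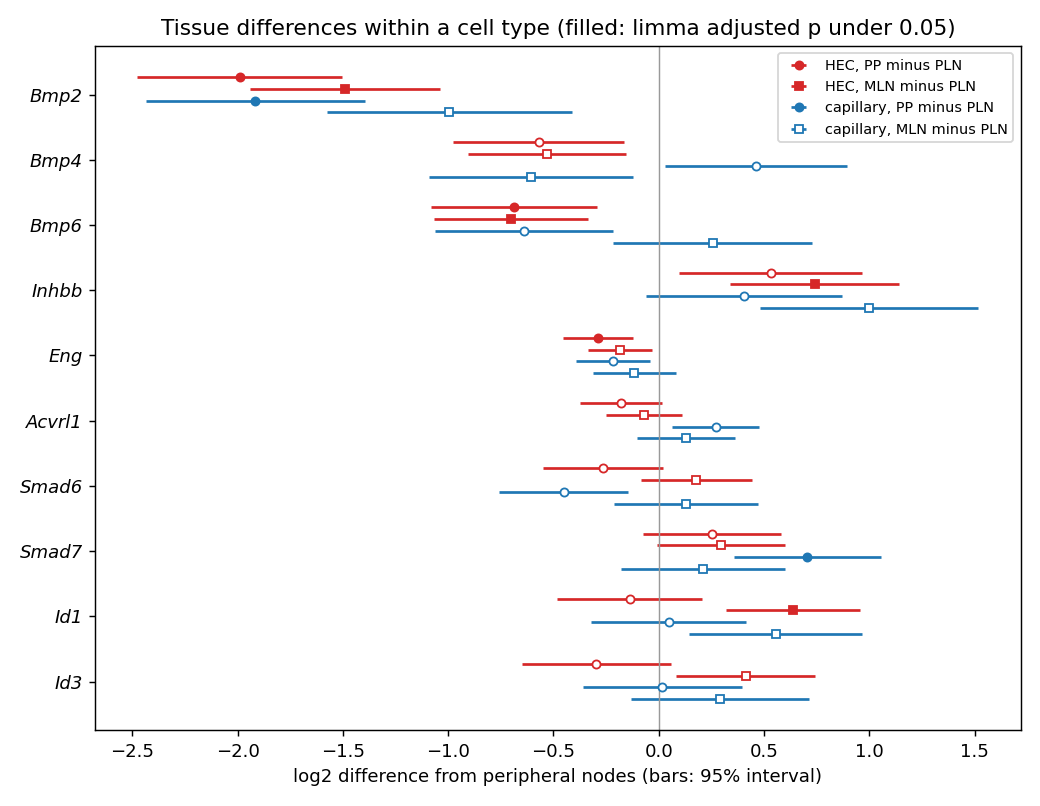
Log2 difference from PLN (x axis) of each of the 10 genes for PP (circles) and MLN (squares), within HEC (red) and within capillary cells (blue), with bars for the 95% interval and filled points where limma's adjusted p was under 0.05. Bmp2 has the largest shifts, -1.99 in PP HEC and -1.92 in PP capillary cells, and the PP shifts of Bmp4, neither of which passed, have opposite signs in HEC and capillary cells.

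Within a cell type the genes did not form 1 block. Correlations are given as descriptions over 11 HEC or 8 capillary arrays, which share tissues and normalization. Id1 and Id3 varied together in HEC (Pearson r 0.89) and in capillary cells (0.83). Smad6 went with Id1 in HEC (0.76), and Smad6 and Smad7 had -0.14 in HEC and -0.77 in capillary cells, where PP arrays were low in Smad6 and high in Smad7. Acvrl1 and Smad7 had 0.93 in capillary cells and Bmp2 and Eng 0.86, while in HEC the lowest correlation was that of Bmp2 and Inhbb (-0.70). Of 45 pairs of the 10 genes, 1 had an absolute r over 0.8 in HEC and 4 in capillary cells, against 19 over all arrays, where the 2 cell types set the order.

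**Figure D4:**
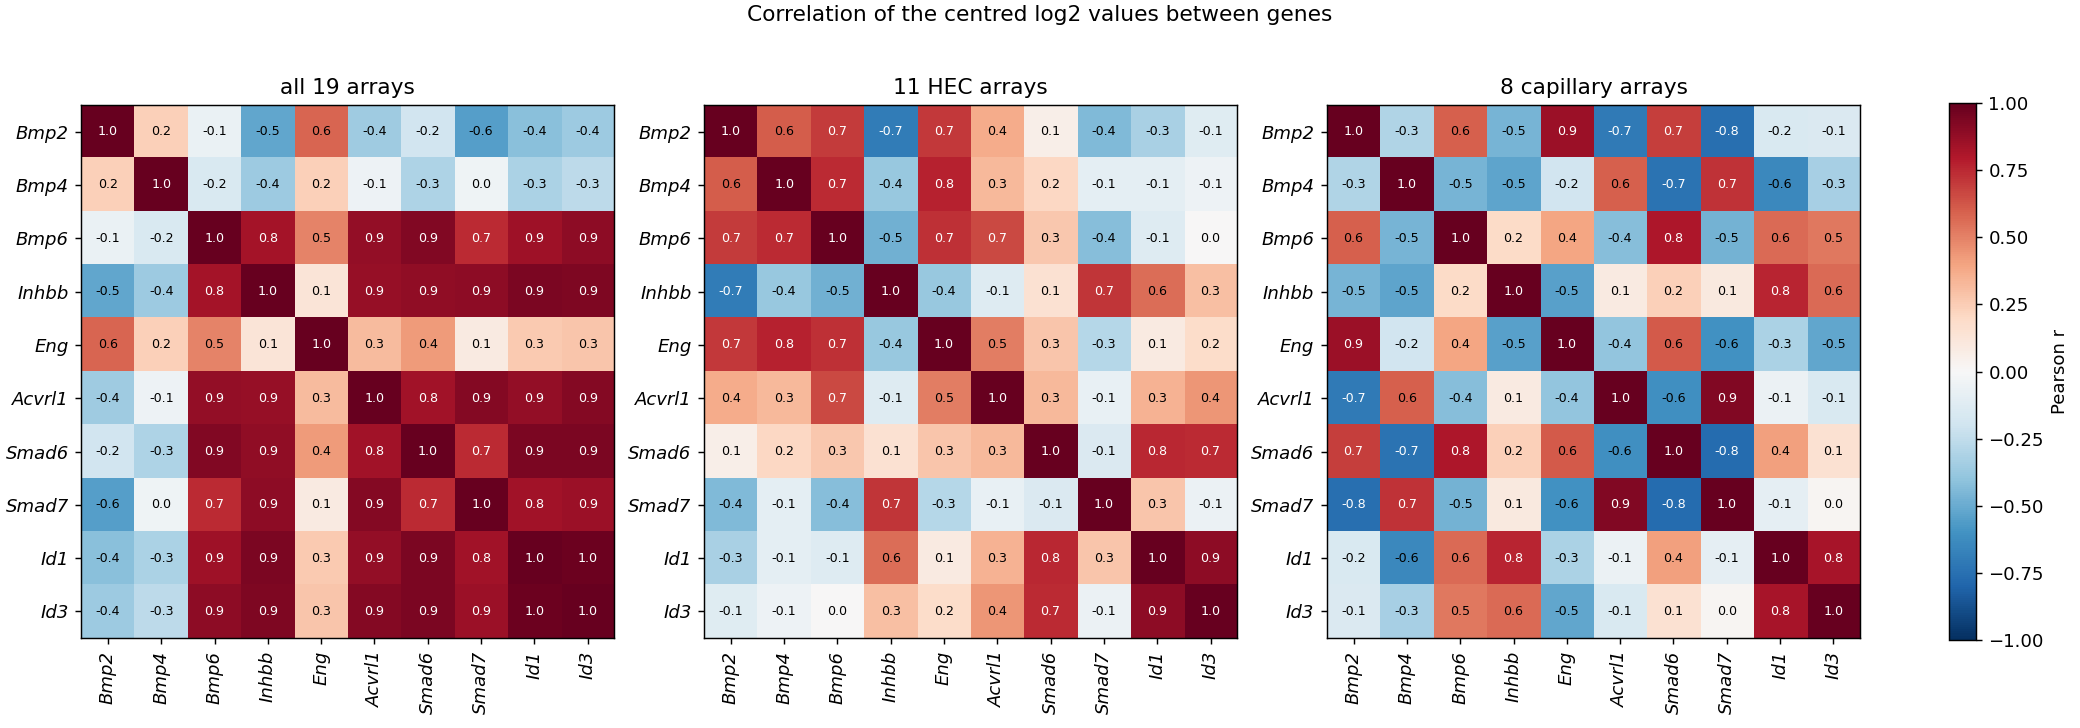
Pearson correlation of the centred log2 values between each pair of the 10 genes (both axes), over all 19 arrays (left), the 11 HEC arrays (middle) and the 8 capillary arrays (right), from blue at -1 to red at 1. The dark red block from Bmp6 to Id3 on the left, which leaves out Eng, is absent within each cell type, where Id1 and Id3 still correlate at 0.89 and 0.83.

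The genes most like each of the 10 over all 19 arrays were mostly ones that separate HEC from capillary arrays. Bmp2, with its tissue order, was closest to Il13ra1 (r 0.94) and Rgs2 (0.93). Bmp4 had the weakest likeness, to Trerf1 (0.77) and Pxdc1 (0.76), and Eng came next with Lrp6 (0.89) and Ppp1ca (0.84). Bmp6 was closest to Npr2 (0.98) and Kremen1 (0.97), and Inhbb to Spry4 and Gpr4 (both 0.97). Acvrl1 had Xdh and Ceacam1 (both 0.97), Smad6 had Tnk2 (0.97) and Scarb1 (0.96), and Smad7 had Arhgef3 and Pir (both 0.97). Hdac5 was second for both Id1 and Id3 (both 0.97), after Zbtb4 for Id1 and Clstn1 for Id3 (both 0.98).

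Beyond the 10 genes, 77 of 81 listed pathway genes were measured, of which 29 were lower and 14 higher in HEC as the mean of 3 tissues, and 34 did not pass, where 18% of all genes were higher and 15.9% lower. Their median difference was -0.11. By role, 8 of 22 ligand genes were lower and 0 higher. Receptors split into 5 lower and 3 higher of 13, and Smads with their regulators into 4 lower and 5 higher of 13. Of 20 extracellular modulators 6 were lower and 4 higher, and of 9 targets 6 were lower and 2 higher.

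Tgfb2, the gene of a TGF-beta ligand, was the ligand gene with the largest fall. Tgfb2 values ran from 0.19 to 0.67 on capillary arrays and from -2.59 to -1.88 on HEC arrays, far apart. It was 6.52-fold lower in HEC (-2.70 ± 0.080, adjusted p 3.9e-14). The other named ligand genes fell by less, Tgfb3 with -0.41 ± 0.099, Gdf11 with -0.27 ± 0.080 and Bmp8a with -0.27 ± 0.084, and their arrays overlapped between the cell types. The Gdf11 and Bmp8a calls were both lost without MLN capillary array 2, and that of Bmp8a also without PLN capillary arrays 1 and 2. Over all alternatives the difference ran from -0.33 to -0.24 for Gdf11, with an adjusted p of up to 0.056, and from -0.34 to -0.24 for Bmp8a, with one of up to 0.0549.

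The TGF-beta receptors moved in opposite directions. Tgfbr2, the type II receptor, was lower in HEC by -1.25 ± 0.068 (adjusted p 1.0e-10), from -0.029 to 0.83 on capillary arrays and from -1.12 to -0.57 on HEC arrays. Tgfbr1, the type I receptor, was higher by 0.83 ± 0.12 (adjusted p 3.2e-05), and the co-receptor gene Tgfbr3 by 0.49 ± 0.050. Arrays of both overlapped between the cell types. By tissue, the Tgfbr1 rise did not pass in PP, and its MLN call was lost without MLN capillary array 1. The Tgfbr3 rise did not pass in MLN. Acvr2a, a type II receptor for activins, was lower by -0.71 ± 0.11, beside the fall of the activin subunit gene Inhbb. Of the intracellular genes, Pmepa1, a TGF-beta target that restrains receptor-regulated Smads, was lower by -1.51 ± 0.079 and the repressor gene Ski by -0.61 ± 0.054, while Smad1, a Smad of BMP receptors, was higher by 0.57 ± 0.084 and the ubiquitin ligase gene Smurf1 by 0.49 ± 0.082. The Smad1 and Smurf1 rises did not pass in PP, and both MLN calls were lost without MLN capillary array 1. The Smurf1 call in MLN was also lost without MLN capillary array 2 or array 3 of the MAdCAM1+ gate. In PLN, the calls of Smad1 and Acvr2a ended without PLN capillary arrays 1 and 2.

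Extracellular modulators held both signs within 1 family. Of the latent TGF-beta binding protein genes, Ltbp4 (-2.03 ± 0.072) was lower, and Ltbp2 (1.76 ± 0.086) and Ltbp1 (0.91 ± 0.097) were higher in HEC. By tissue, the Ltbp1 rise passed in MLN (1.66) and PP (0.68) and did not pass in PLN. Lrrc32, whose product GARP holds latent TGF-beta at the cell surface, was lower by -2.05 ± 0.12, from 1.24 to 2.58 on capillary arrays and from -0.52 to 0.53 on HEC arrays. Mgp, which binds BMP ligands, was lower by -1.41 ± 0.076. Ltbp1 was lowest in PLN, below PP by 1.44 ± 0.16 and below MLN by 1.51 ± 0.15 in HEC, and below PP by 1.13 ± 0.17 in capillary cells. Ltbp2, higher in PLN, was lower in PP by -1.31 ± 0.14 in HEC and by -1.0 ± 0.15 in capillary cells, although the latter call was lost without PLN capillary arrays 1 and 2.

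Among the targets Gja4, the gap junction gene of arterial endothelium, had the largest difference of the pathway genes. Gja4 ran from 0.88 to 2.10 on capillary arrays and from -1.88 to -0.84 on HEC arrays, a 7.47-fold fall in HEC (-2.90 ± 0.099). Tmem100, an ALK1 target in endothelium, was lower by -1.68 ± 0.097 and Msx1 by -1.37 ± 0.060. Tgfbi, a matrix protein gene induced by TGF-beta, was higher by 2.10 ± 0.11, from -1.47 to 0.81 on capillary arrays and from 1.53 to 1.78 on HEC arrays. In capillary cells Tmem100 was higher in PP than in PLN by 1.28 ± 0.17 and Tgfbi lower by -1.57 ± 0.18.

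**Figure D5:**
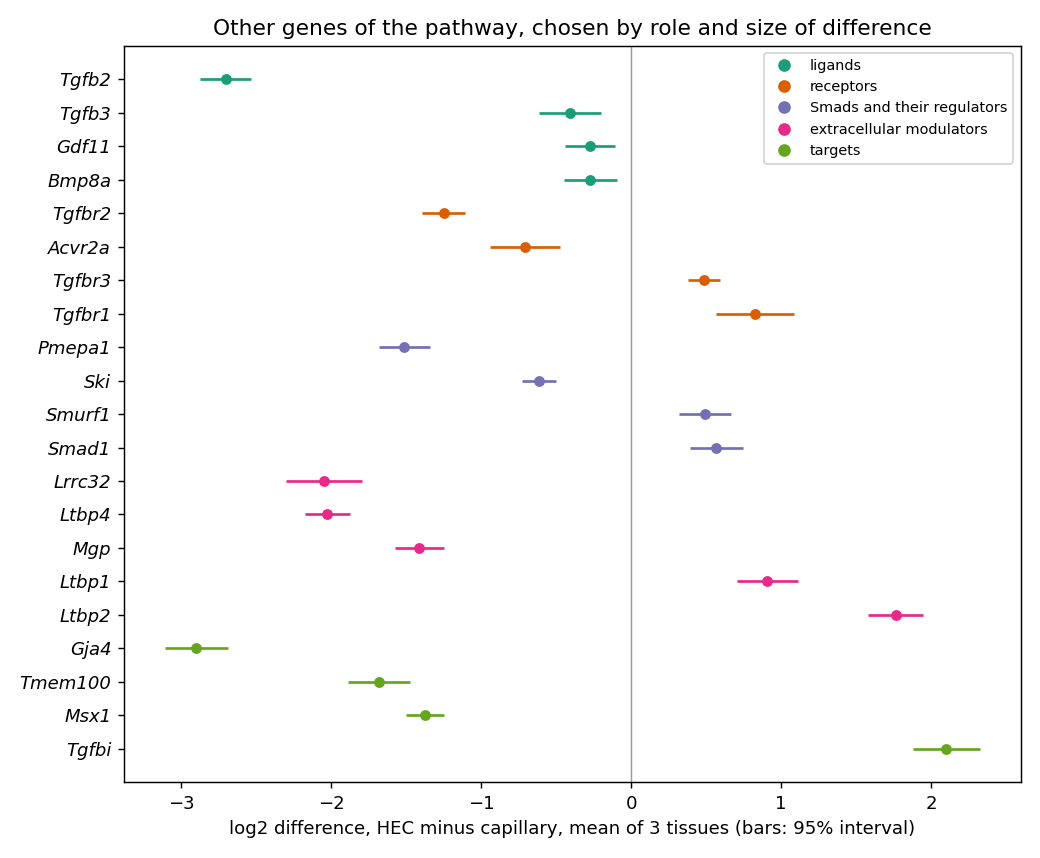
Log2 difference, HEC minus capillary cells as the mean of 3 tissues (x axis), of the named pathway genes beyond the 10, coloured by role, with bars for the 95% interval. Gja4 at -2.90 and Tgfb2 at -2.70 are lowest, and Tgfbi at 2.10 and Ltbp2 at 1.76 are highest.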

How the data were processed

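RNA of the sorted cells was amplified and hybridised as labelled cDNA to whole-transcript arrays, per the labels' protocols. The authors deposited log2 signals. The submitters' processing notes name RMA and Partek without versions. RMA subtracts background and makes the distributions of arrays alike, which can compress large folds. The values run from -4.0922 to 6.1278, and 54.47% of probe sets hold an exact 0, so probe sets had been centred, on a baseline not given in the sources used here. Detection and signal over background are therefore unknown, and the number of arrays limits the precision.

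The platform annotation gave 1 symbol for 21789 of 28856 probe sets, several for 1621 and none for 5446. Genes with more than 1 probe set (999) took their mean. Groups came from the sample titles. A model with 7 group means was fitted to 19 arrays with limma 3.58.1 in R 4.3.3 (12 residual degrees of freedom, 4.62 prior ones), with two-sided p-values adjusted over 19938 genes in each of 14 contrasts. The model was also run on simulated data with independent noise on each array. That run cannot give the error rate where arrays are correlated. MLN HEC is the mean of both gates, and ± is the SE of the model unless SD is written. The labels give no batch.

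The 10 genes, the lists and the alternatives were chosen with earlier results of these data known. The genes named are the 10, up to 4 called pathway genes for each role with the largest HEC differences, pathway genes with a called tissue difference or interaction of at least 1, and the 2 genes most correlated with each of the 10. Others are said to be named after their values were seen. The HEC and capillary marker lists, weights estimated gene by gene and a fit without PP HEC array 2 and PLN capillary arrays 1 and 2 were added after seeing the data. The other alternatives were the replicate block, each array left out, PLN capillary arrays 1 and 2 left out, other normalizations, array weights, fits of the compared groups, a filter on range, the choice of probe set and a robust prior. Plots used matplotlib 3.10.9.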

Additional observations from a re-analysis of the deposited data

Results flagged for a closer look

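Among the genes named here, the HEC difference itself differed between tissues in 13 cases by limma's interaction test, adjusted over 19938 genes. All 77 measured pathway genes beyond the 10 gave 5 upward and 6 downward calls for PP minus PLN, 1 upward for MLN minus PLN, and 1 upward and 2 downward for PP minus MLN. Bmp4 had an HEC difference of 0.57 in PLN, which passed, and of -0.46 in PP, which did not, and these differed by -1.03 (adjusted p 0.0492). That call was lost in 16 of 29 alternatives.

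For PP minus PLN, the modulator gene Mgp had -0.96 (adjusted p 0.0045), the connexin gene Gja4 -1.03 (adjusted p 0.018) and the ALK1 target gene Tmem100 -0.88 (adjusted p 0.041), so their falls in HEC were larger in PP. The rise of the matrix gene Tgfbi in HEC was larger in PP by 1.52 (adjusted p 0.0014), and that of the co-receptor gene Tgfbr3 by 0.60 (adjusted p 0.0066). Tgfb3 had 0.94 (adjusted p 0.031), from a fall of -0.90 in PLN to 0.03 in PP, which did not pass. Of these, Tgfbi and Mgp passed in each of 29 alternatives, while Tgfbr3 lost the call in the 2 that left out PLN capillary arrays 1 and 2, Gja4 in 6, Tgfb3 in 10 and Tmem100 in 17. The BMP receptor genes Acvr1 with -0.98 (adjusted p 0.0023) and Bmpr1a with 0.90 (adjusted p 0.041) were named after their values were seen.

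For MLN minus PLN, the latent TGF-beta binding protein gene Ltbp1 had 1.28 (adjusted p 0.021), lost in 6 alternatives. For PP minus MLN, Tgfbr3 had 0.84 (adjusted p 0.0024), Ltbp4 -0.90 (adjusted p 0.024) and Mgp -1.02 (adjusted p 0.016). Tgfbr3 passed in each alternative here, Ltbp4 lost the call in 11 and Mgp in 3.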

How the results depend on the processing

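Over 14 contrasts of the 10 genes, 45 of 140 differences were called. Of 1304 values of called differences under 29 alternatives, 1173 kept the call, 131 lost it and 0 reversed, and of 2742 values of the others 44 passed. The number of the 10 genes called in HEC against capillary cells, for each tissue and the mean, stayed within 1.5 times of that reported. Their counts in the tissue differences and interactions did not. Quantile normalization again gave 1 call for PP against PLN HEC, 1 for MLN against PLN HEC, 0 for PP against MLN HEC and 0 for the PP minus PLN interaction. Array weights gave 5 for PP against PLN HEC, 4 for PP against MLN HEC, 4 for PP against MLN capillary cells, 2 for the PP minus PLN interaction and 1 for the PP minus MLN interaction. Fits of only the compared groups gave 1, 2 and 0 for PP against PLN, MLN against PLN and PP against MLN HEC and 0 for PP against MLN capillary cells. The most variable probe set and the robust prior each gave 1 for PP against MLN in HEC and 1 in capillary cells, and 0 for the PP minus PLN interaction. Centring on array medians gave 1 for PP against MLN capillary cells. Without PLN capillary arrays 1 and 2, PP against PLN capillary cells gave 1, and with PP HEC array 2 left out too, PP against MLN HEC gave 0.

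Leaving out 1 array gave 1 to 3 calls for PP against PLN HEC, 1 to 4 for MLN against PLN HEC, 0 to 2 for PP against MLN HEC, 1 to 3 for PP against PLN, 0 to 1 for MLN against PLN and 0 to 2 for PP against MLN capillary cells, and 0 to 2 for the PP minus PLN interaction. Values of uncalled genes changed sign: Eng in PLN was 0.033 without PLN capillary arrays 1 and 2, with or without PP HEC array 2, and -0.087 to 0.026 without 1 array. The Bmp2 interaction of PP minus PLN was 0.35 after quantile normalization and -0.21 to 0.14 without 1 array. The causes were not tested. The share of all genes called moved too. PP against PLN HEC had 1326 called genes, 7202 with array weights and 712 without PP HEC array 1. PP against MLN HEC had 239, 2583 with array weights and 80 with only the compared groups, and the PP minus PLN interaction had 808, 3994 with array weights and 338 without PP HEC array 2 and PLN capillary arrays 1 and 2. HEC against capillary cells of PLN had 4897, and 2655 without PLN capillary arrays 1 and 2, and that of PP had 3881, and 7082 with array weights. Leaving out 1 array moved that of MLN from 3027 to 1791 (MLN capillary array 1), MLN against PLN HEC from 537 to 285 (array 2 of the MAdCAM1+/PNAd+ gate) and PP against MLN capillary cells from 370 to 167 (MLN capillary array 2). PP against PLN capillary cells had 925, and 354 without PLN capillary arrays 1 and 2.

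Replicate numbers gave no clear pairing of the arrays. Of same-numbered pairs 17 of 41 correlated over 0.1 (median 0.083), against 37 of 112 pairs with different numbers (median -0.013). Only 4 of 19 arrays correlated best with their own number. The MLN arrays of the MAdCAM1+ gate are numbered 3 and 4 and the other MLN arrays 1 and 2. Shared numbers therefore cannot show a pairing with that gate in MLN, and pairing is not excluded. Array 3 of that gate correlated with MLN capillary array 1 (0.52) and with array 1 of the MAdCAM1+/PNAd+ gate (0.57). With 2 arrays a group the deviations are mirror images, so arrays 4 and 2 match in turn. The replicate block does not link arrays with different numbers. The replicate block gave 1 call for PP against MLN HEC, 4 for PP against PLN and 1 for MLN against PLN capillary cells and 0 for the PP minus PLN interaction, and moved no other count of the 10 genes by over 1.5 times, although in PP against PLN HEC its 3 calls were not the same genes, with Inhbb in place of Eng.

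Signal over background is unknown, so dim probe sets could not be told from bright ones. With 2 to 4 arrays a group, a difference as small as that of Eng between HEC and capillary cells (-0.094) did not pass.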

Other observations

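Acvr1, which encodes the BMP type I receptor ALK2, was singled out after its values were seen. Its HEC values were 0.42, 0.36, 0.29 and 0.43 in PLN, -0.33 and -0.26 in the MAdCAM1+/PNAd+ gate of MLN, -0.34 and -0.26 in the MAdCAM1+ gate, and -0.66, -0.68 and -0.34 in PP. Capillary values of Acvr1 were 0.18, -0.40 and 0 in PLN, -0.19 and -0.22 in MLN and 0.029, 0.0071 and -0.13 in PP. PLN HEC was above and PP HEC below every capillary array of its own tissue. Acvr1 in HEC was lower in PP than in PLN by a log2 difference of -0.93 (limma adjusted p 5.4e-05), and its HEC difference changed sign between PLN (0.45) and PP (-0.53), by -0.98 (adjusted p 0.0023). This change passed in each of 29 alternatives, while the PLN difference alone was lost without PLN capillary array 2 and without PLN capillary arrays 1 and 2. The mean HEC difference over the 3 tissues was -0.06 (adjusted p 0.61).

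Bmpr1a, the gene of another BMP type I receptor and also singled out after its values were seen, was lower in HEC by -0.48 as the mean of tissues (limma adjusted p 9.6e-04). The fall was -0.82 in PLN and -0.69 in MLN, and 0.08 in PP did not pass. The PLN call ended without PLN capillary arrays 1 and 2, and the MLN call without either MLN capillary array. The PP minus PLN change of Bmpr1a, 0.90 (adjusted p 0.041), was lost in 17 of 29 alternatives.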
